A study of Mus musculus with 23 samples.

Results

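The cadherin genes described here are the 31 protein-coding mouse genes whose symbol is *Cdh* or *Pcdh* followed by a number (with an x for the copy on chromosome X) and whose raw counts reached at least 50 in sum over 23 RNA-seq libraries. They comprise 19 *Cdh* and 12 *Pcdh* genes out of 56941 genes in the count files. Of 35 genes with such a symbol, *Cdh1* (4 counts), *Cdh3* (24), *Cdh16* (0) and *Cdh17* (35) did not reach the minimum. The member just above it was *Pcdh12* with 87 counts. The libraries were made from primary hippocampal neurons of P0 pups of the homozygous Nedd8cKO line, in which loxP sites flank an inner pair of exons of *Nedd8*. In both groups the neurons carried the floxed alleles and were infected at day 1 in vitro with lentivirus whose Synapsin1 promoter, active in neurons, drove either red fluorescent protein alone (RFP) or the CRE recombinase together with RFP (CRE). The labels give 12 days in culture, whereas the methods give 1 day more. The cultures also hold glia, so that the libraries report all cells of a dish.

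Classical cadherins are calcium-dependent adhesion molecules that bind across the cell contact with their outermost cadherin repeat, while their cytoplasmic tail binds p120-type catenins and beta-catenin and, through alpha-catenin, the actin cytoskeleton. N-cadherin, a type I member, sits at many synapses, whereas many type II members are expressed in subsets of neurons and take part in sorting them into circuits. Non-clustered protocadherins, which are encoded at single loci outside the alpha, beta and gamma clusters, adhere more weakly and signal through their tails, with a phosphatase-binding motif in the delta-1 group and binding of the WAVE actin regulator in several delta-2 members. Nedd8 is a ubiquitin-like modifier best known for activating the cullin ubiquitin ligases.

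The comparison used the 21 libraries of the authors' count table, 11 CRE and 10 RFP, with totals of 7430401 to 13345552 counts (median 11082822) in CRE and 9833872 to 17112815 (median 11569225) in RFP libraries. *Nedd8* itself was measured at 44.1 to 76.0 CPM (counts divided by library size, with TMM factors) in RFP and 5.92 to 17.96 in CRE libraries, so that the groups did not overlap. Library Nedd8Cre1-3 stood apart within this set, with 0.261% of its counts on mitochondrial genes, and Nedd8RFP2-4 with 3.43%, against 6.997 to 11.1% in the other 19. The log CPM of each library, less the mean of the other libraries, was rank-correlated with the GC content of genes. This correlation was likewise high in Nedd8Cre1-3 and Nedd8RFP2-4, at 0.728 and 0.398, while the same 19 libraries ran from -0.309 to 0.0925. Among the CRE libraries, Nedd8Cre1-3 was the lowest for 16 and the highest for 6 of the 27 members that could be tested. Counts were therefore also compared in the 19 libraries without this pair, and in all 23. The labels do not say that libraries of a group come from separate animals or cultures. The paper's figure legends count fewer animals or biological replicates than libraries, so the libraries of a group are not all independent. The p-values treat each library as a replicate and may therefore be too small. They measure the spread between libraries, part of which may be technical.

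In RFP libraries, the members held 0.187 to 0.226% of the scaled counts. Because longer messages give more reads, levels of different genes are compared here as CPM per kb of exon. The highest members per kb were protocadherins. *Pcdh1*, a delta-1 member, lay at a median of 37.1 CPM per kb (26.2 to 44.1, n = 10), and *Pcdh8*, the activity-induced arcadlin, at 34.7 (30.1 to 41.2). These ranges overlapped, and both lay above those of every other member. *Pcdh9* (17.1), *Cdh2*, which encodes N-cadherin (14.9), *Pcdh17* (14.9), *Pcdh19* (12.7) and *Pcdh10* (10.2) followed with overlapping ranges between neighbours. Of the 10 highest members, 6 were protocadherins. At the other end, *Cdh5* (VE-cadherin of endothelial cells), *Cdh23*, *Pcdh12* and *Cdh26* had RFP medians under 1 CPM, and 21 of the 31 members had medians of at least 10 CPM. In CRE libraries *Pcdh8* was highest with 37.2 CPM per kb (25.1 to 82.9, n = 11), followed by *Pcdh1* with 24.8 (16.8 to 66.2), *Pcdh17* with 22.9 (14.0 to 28.8) and *Pcdh9* with 21.2 (4.04 to 27.2), and these ranges all overlapped. Summed over the 31 members, the level was 222 CPM per kb (196 to 236) in RFP and 228 (182 to 258) in CRE libraries. The ranges of this sum overlapped widely between the groups.

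**Figure D1:**
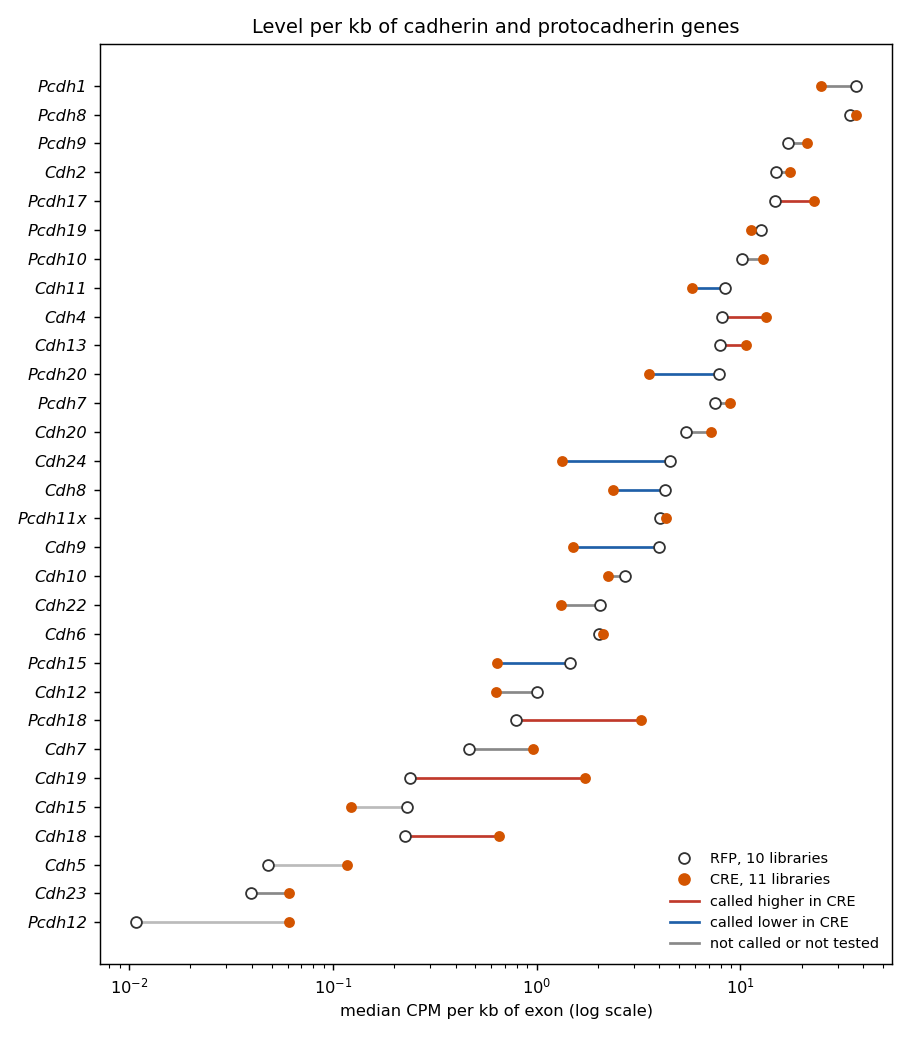
Median level per kb of exon (log axis) of 30 members in 10 RFP (open circles) and 11 CRE libraries (filled circles), joined by a line whose colour gives the result of the test. *Cdh26*, whose RFP median was 0, is left out. *Pcdh1* and *Pcdh8* lie at the top in both groups, and the longest lines among called members are those of *Cdh19* and *Pcdh18*.

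Of the 31 members, 27 had enough counts for edgeR's filter and were tested between CRE and RFP libraries. A gene was called where the quasi-likelihood test of edgeR gave a p under 0.05 after Benjamini-Hochberg adjustment over the 14488 genes that passed the filter. By this rule 6 members were higher and 6 lower in CRE libraries. The 12 called members are 44.4% of those tested, against 30.2% of all genes tested. By direction, 22.2% of the members were higher and 22.2% lower, against 16.4% and 13.8% of all genes. The median absolute log2 fold change was 0.53 over the members and 0.32 over all genes tested, and the signed medians were 0.09 and 0.02. In these cultures of several cell types, fewer cells of a type and less RNA per cell cannot be told apart. In the 19 libraries, 8 members were called higher and 8 lower, beside 38.1% of all genes called, and all 12 members of the first comparison were among them with the same sign. In all 23 libraries 5 were higher and 6 lower, beside 28.2% of all genes, and the member lost was *Cdh13*. With counts summed over the 3 cultures read from the library names, 6 were higher and 7 lower, beside 22.8% of all genes. *Cdh13* and *Pcdh15* were not called there, while *Cdh7*, *Cdh22* and *Pcdh1* were.

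**Figure D2:**
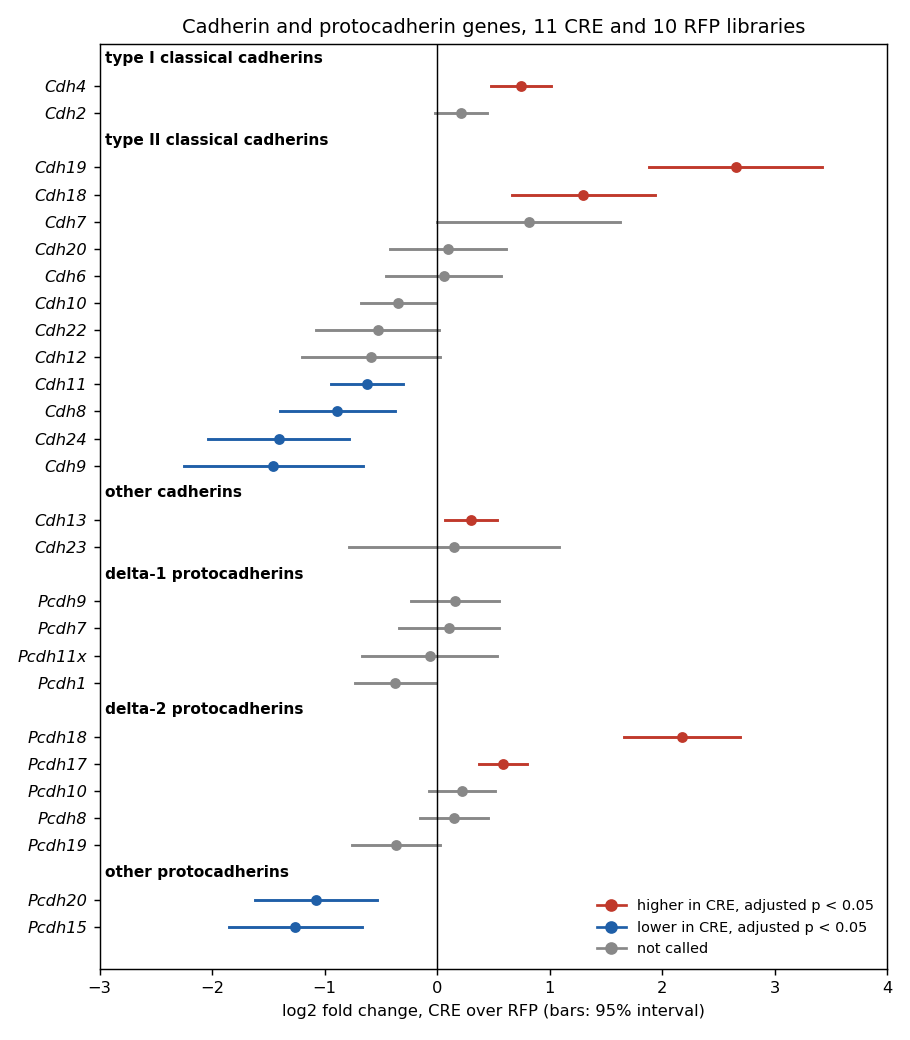
Log2 fold change of CRE over RFP with its 95% interval for the 27 members tested, grouped by class (red, higher and blue, lower at an adjusted p under 0.05; grey, not called). Calls in both directions appear among the type II cadherins, none among the 4 delta-1 protocadherins, and both tested members of the last class are lower.

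By class, the called members went as follows. Of the 12 type II cadherins tested, 4 were lower (*Cdh8*, *Cdh9*, *Cdh11* and *Cdh24*) and 2 higher (*Cdh18* and *Cdh19*), with a class median log2 fold change of -0.44. Among the 5 delta-2 protocadherins 2 were higher (*Pcdh17* and *Pcdh18*) and none lower, among the 4 delta-1 protocadherins none was called and 1 had an unadjusted p under 0.05, and in the remaining protocadherins both tested members, *Pcdh15* and *Pcdh20*, were lower. Of the type I cadherins, *Cdh4* was higher and *Cdh2* was not called. The GPI-anchored *Cdh13* was higher and *Cdh23* was not called. A difference between classes was not tested, since they hold 2 to 12 genes each.

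The largest rise was that of *Cdh19* (chromosome 1 of GRCm39, 110815039 to 110905349, minus strand), a type II cadherin known from the Schwann cell lineage. It lay at 0.633, 1.31 and 2.36 CPM (lowest, median and highest of 10) in RFP and at 0.545, 9.42 and 16.6 CPM (of 11) in CRE libraries. All CRE libraries but Nedd8Cre1-3, the lowest, were above every RFP library. The log2 fold change was 2.65 (SE 0.37, adjusted p = 5.8e-06, edgeR), and 2.72 in the 19 libraries. The number before the hyphen of a library name is read here as its culture, which neither the labels nor the paper state. By this reading the fold change was nearly the same in cultures 1, 2 and 3, at 2.57, 2.66 and 2.67. In counts, the RFP libraries held 8 to 31 reads of this gene and the CRE libraries 4 to 219.

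*Pcdh18* (chromosome 3, 49697731 to 49711830, minus strand), a delta-2 protocadherin, was the only member without overlap between the groups in the 21 libraries, where 4.72% of all genes had none. Its levels were 1.85, 4.31 and 7.18 CPM in RFP and 10.8, 17.7 and 37.6 CPM in CRE libraries. The log2 fold change was 2.17 (SE 0.25, adjusted p = 3.03e-07, edgeR), a 4.51-fold difference. By culture it was 2.13, 2.53 and 1.63. The highest CRE libraries were those of culture 2, with a median of 30.0 CPM there against 15.6 and 17.5 in cultures 1 and 3. In the excluded library Nedd8Cre3-3, which holds 1546796 counts in all, *Pcdh18* was at 0.682 CPM, below every RFP library. Over the 19 libraries, 3 members had no overlap, *Cdh19*, *Pcdh17* and *Pcdh18*, beside 7.87% of all genes.

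*Pcdh17* (chromosome 14, 84680965 to 84776442), a delta-2 protocadherin that recruits the WAVE complex and takes part in presynaptic assembly, started from a far higher level. It was measured at 159, 195 and 218 CPM in RFP and at 183, 300.5 and 377 CPM in CRE libraries. Of 11 CRE libraries, 10 were above every RFP library and the lowest was again Nedd8Cre1-3. The rise was 50.3% (log2 fold change 0.59, SE 0.10, adjusted p = 0.000101, edgeR), with 0.62, 0.47 and 0.70 by culture.

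*Cdh4* (chromosome 2, 179084201 to 179541166), the R-cadherin of type I, lay at 43.8, 58.9 and 82.2 CPM in RFP and at 77.8, 97.9 and 157 CPM in CRE libraries, with 9 of 11 CRE libraries above every RFP library. Its log2 fold change was 0.74 (SE 0.13, adjusted p = 9.71e-05, edgeR). N-cadherin (*Cdh2*), the other tested member of type I, lay at 114 to 164 CPM in RFP and 92.3 to 197 in CRE libraries. Its log2 fold change of 0.21 had a 95% interval from -0.02 to 0.45. The level of *Cdh4* per kb thus rose from 8.09 to 13.4 while that of *Cdh2* was 14.9 and 17.6.

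*Cdh18* (chromosome 15, 22549108 to 23474504), a type II cadherin of the brain, was scarce, with 1.36, 2.16 and 5.84 CPM in RFP and 3.13, 6.25 and 14.9 CPM in CRE libraries. The groups overlapped, and 6 of 11 CRE libraries were above every RFP library. The log2 fold change was 1.30 (SE 0.31, adjusted p = 0.00212, edgeR), with 1.94, 1.20 and 0.98 by culture. *Cdh13* (chromosome 8, 119010328 to 120051660), T-cadherin, had the smallest called difference. Its levels were 62.2, 92.1 and 134 CPM in RFP and 102, 123 and 143 CPM in CRE libraries. Only 1 CRE library was above every RFP library, and the log2 fold change of 0.30 (SE 0.11, adjusted p = 0.0472, edgeR) had an adjusted p of 0.173 from edgeR in all 23 libraries. By culture it was 0.66, 0.02 and 0.29, and without culture 1 it was 0.15 (adjusted p = 0.400, edgeR).

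**Figure D3:**
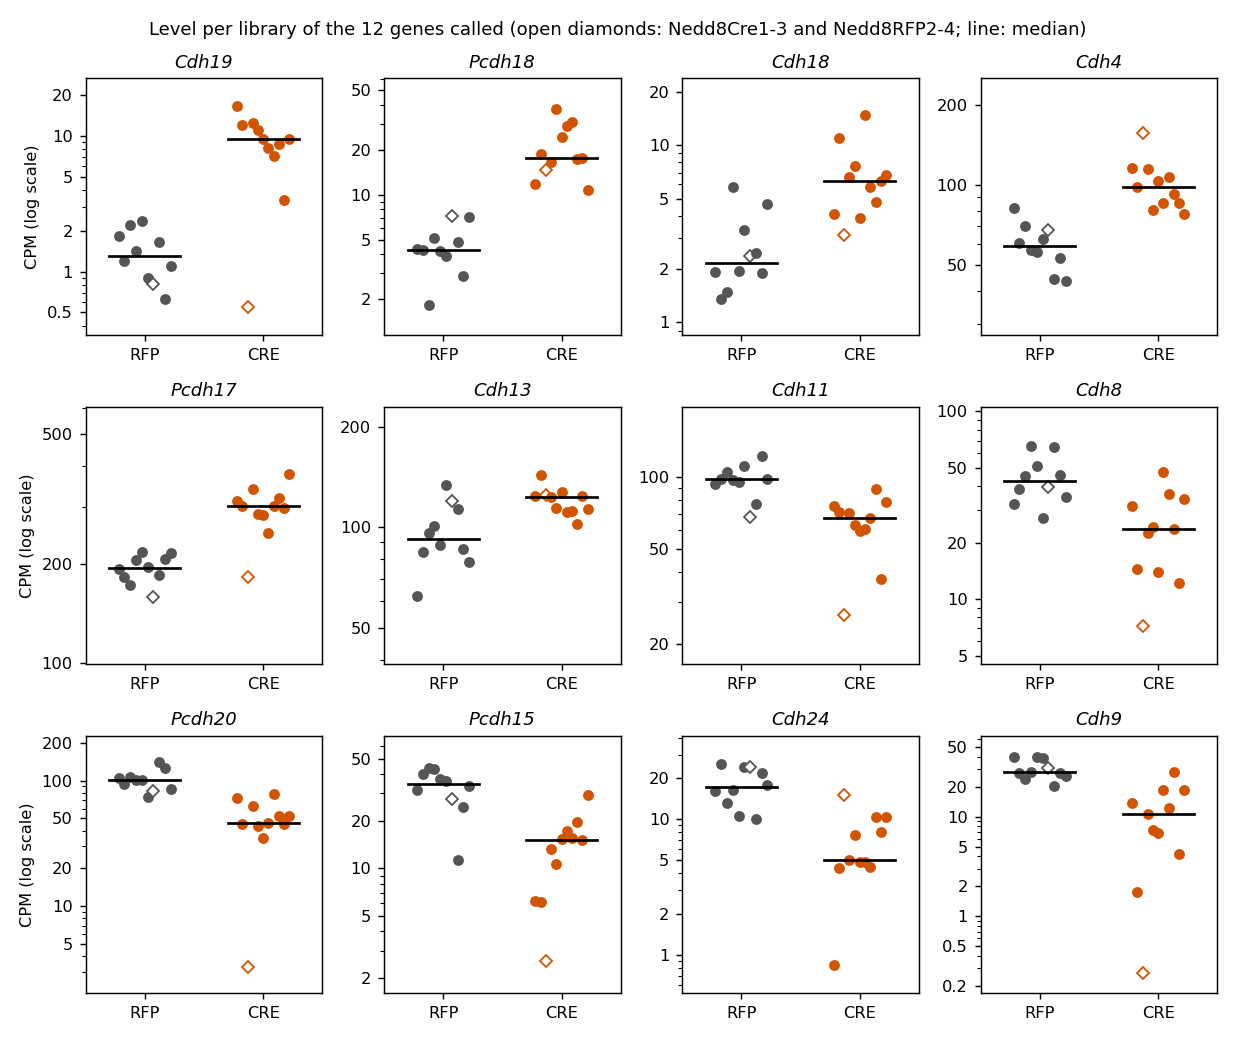
CPM (log axis) of the 12 called members in each of 10 RFP and 11 CRE libraries, with the median as a line and open diamonds for Nedd8RFP2-4 and Nedd8Cre1-3. The groups separate fully for *Pcdh18*, and for *Cdh19*, *Pcdh20* and *Cdh9* the single lowest CRE point is Nedd8Cre1-3.

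Among the 6 lower members, 4 were type II cadherins. *Cdh24* (chromosome 14, 54868688 to 54878831, minus strand) lay at 10.0, 17.1 and 25.6 CPM in RFP and at 0.834, 5.01 and 15.1 CPM in CRE libraries, with 8 of 11 CRE libraries below every RFP library. Here Nedd8Cre1-3 was the highest CRE library. The log2 fold change was -1.41 (SE 0.30, adjusted p = 0.000876, edgeR). *Cdh9* (chromosome 15, 16728507 to 16857226), which is needed at the mossy fibre synapses between dentate granule cells and CA3 neurons, lay at 20.1, 27.9 and 40.1 CPM in RFP and at 0.272, 10.6 and 28.3 CPM in CRE libraries. All but 1 of the 11 CRE libraries, Nedd8Cre3-1, were below every RFP library. Its log2 fold change was -1.46 (SE 0.39, adjusted p = 0.00518, edgeR).

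*Cdh8* (chromosome 8, 99751103 to 100144308, minus strand), a type II cadherin of subsets of forebrain neurons and their synapses, lay at 26.9, 42.5 and 65.7 CPM in RFP and at 7.22, 23.6 and 47.8 CPM in CRE libraries. Of 11 CRE libraries, 7 were below every RFP library, and the log2 fold change was -0.89 (SE 0.25, adjusted p = 0.00755, edgeR). The exons of *Cdh8* share 7.42% of their bases with a long non-coding RNA on the opposite strand, A330008L17Rik, whose 1059 counts compare with 8636 for *Cdh8*. *Cdh11* (chromosome 8, 103358726 to 103512687, minus strand), named OB-cadherin after bone cells and also expressed by neurons, lay at 68.1, 98.1 and 123 CPM in RFP and at 26.3, 67.4 and 89.1 CPM in CRE libraries. It was the least changed of the lower members, with a log2 fold change of -0.62 (SE 0.16, adjusted p = 0.00339, edgeR) and values of -0.71, -0.62 and -0.54 by culture.

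The other 2 lower members were protocadherins outside the delta groups. *Pcdh20* (chromosome 14, 88694835 to 88708832, minus strand) was measured at 74.5, 101 and 141 CPM in RFP and at 3.27, 45.8 and 79.0 CPM in CRE libraries. Nedd8Cre2-4 was the only CRE library within the RFP range, and Nedd8Cre1-3 was far under the rest. The level fell by 52.7% (log2 fold change -1.08, SE 0.26, adjusted p = 0.00257, edgeR). *Pcdh15* (chromosome 10, 72935174 to 74485569), part of the tip link of hair cells and in the brain a gene of oligodendrocyte precursors, lay at 11.2, 34.6 and 43.3 CPM in RFP and at 2.59, 15.2 and 29.4 CPM in CRE libraries. The groups overlapped, with 4 of 11 CRE libraries below every RFP library. Its log2 fold change was -1.26 (SE 0.29, adjusted p = 0.00139, edgeR). With counts summed per culture it was -1.19 and not called (adjusted p = 0.0580, edgeR). *Cdh23*, the partner of *Pcdh15* in the tip link, was near the limit of detection, at 0.167 to 2.57 CPM in RFP and 0.278 to 2.77 in CRE libraries, with a log2 fold change of 0.15 and a 95% interval from -0.79 to 1.08.

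The fold changes within cultures come from the libraries that made the calls, so that a shared sign among called members is a description only. Those of *Pcdh15* were the most uneven, at -2.44, -1.33 and -0.11 in cultures 1, 2 and 3. A test of whether the change differed between cultures gave an unadjusted p of 0.0022 for *Pcdh15* from edgeR's quasi-likelihood test and 0.816 after Benjamini-Hochberg adjustment over all genes. *Cdh9* ran in the same order, at -2.19, -1.66 and -0.53 (unadjusted p = 0.242 for the difference, edgeR). Of the members not called, *Cdh6* changed sign between cultures, at -0.90, 0.35 and 0.53. For *Cdh6* the same edgeR test gave an unadjusted p of 0.0190, and 0.977 after adjustment. An unadjusted p under 0.05 was found for 2 of 27 members and for 595 of 14488 genes by this test. Without culture 2, *Cdh9*, *Cdh11*, *Cdh24* and *Pcdh15* kept their sign but had adjusted p of 0.0742 to 0.150 from edgeR's test. *Cdh8* and *Pcdh20* stayed called there.

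**Figure D4:**
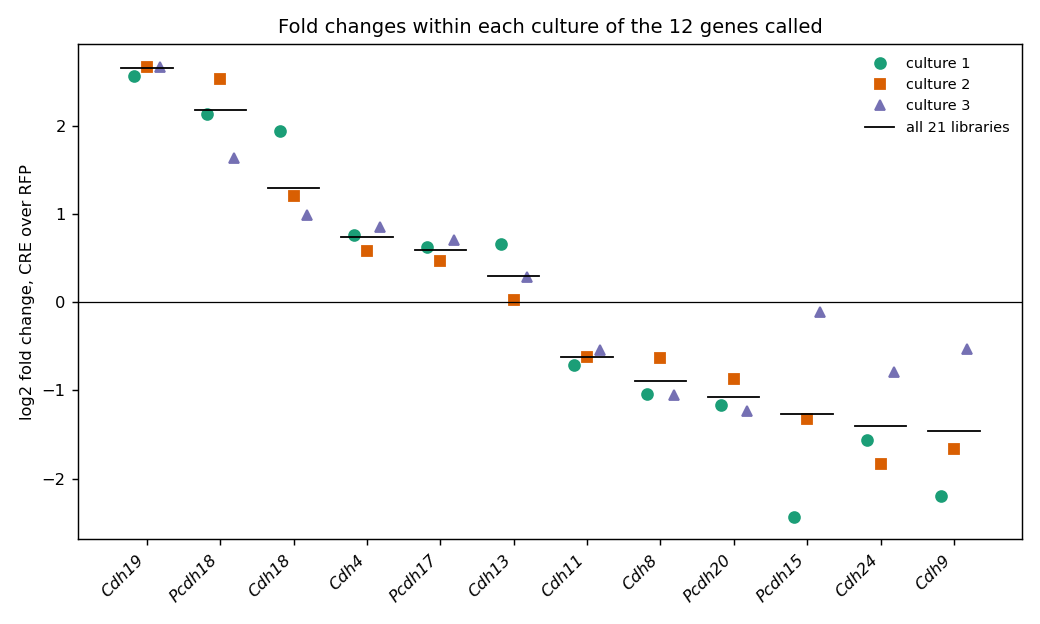
Log2 fold change of CRE over RFP of the 12 called members within culture 1 (circles), culture 2 (squares) and culture 3 (triangles), with the value over all 21 libraries as a line. All points lie on the same side of 0 as the line, with that of *Cdh13* in culture 2 at 0.02, and they are closest to each other for *Cdh19* and farthest apart for *Pcdh15*.

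Of the 15 members that were tested and not called, 11 had 95% intervals that lay within 1 of 0 on the log2 scale, which leaves smaller changes possible. The delta-1 protocadherins *Pcdh7*, *Pcdh9* and *Pcdh11x* had log2 fold changes of 0.10 (-0.34 to 0.55), 0.16 (-0.23 to 0.55) and -0.07 (-0.67 to 0.53). *Pcdh8* was at 136 to 187 CPM in RFP and 114 to 376 in CRE libraries, with a log2 fold change of 0.15 (-0.15 to 0.45), and 46.5% of its exon bases overlap a long non-coding RNA on the opposite strand with 164 counts in all. *Pcdh10*, which takes part in activity-driven synapse elimination, was at 0.22 (-0.08 to 0.51), and *Pcdh19*, the X-linked epilepsy gene, at -0.36 (-0.76 to 0.03). Among the type II cadherins, *Cdh6* (0.06, from -0.45 to 0.57), *Cdh10* (-0.35, from -0.67 to -0.02), *Cdh12* (-0.59, from -1.20 to 0.03) and *Cdh20* (0.09, from -0.42 to 0.61) were not called in the 19 libraries either.

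Another 4 members were called in the 19 but not in the 21 libraries, and all 4 had an extreme value in Nedd8Cre1-3. *Pcdh1*, the highest member per kb in RFP libraries, lay at 233, 331 and 393 CPM in RFP and at 149.6, 221 and 590.1 CPM in CRE libraries. The value of 590.1 CPM was that of Nedd8Cre1-3, while the other 10 CRE libraries were at or below 282 CPM. Its log2 fold change was -0.37 (adjusted p = 0.117, edgeR) in the 21 libraries and -0.56 (adjusted p = 0.000127, edgeR) in the 19. *Cdh22* likewise went from -0.53 (adjusted p = 0.140) to -0.78 (adjusted p = 0.0060, both from edgeR), with 26.7 CPM in Nedd8Cre1-3 and 5.36 to 11.1 CPM in the other CRE libraries. *Pcdh9* and *Cdh7*, lowest in Nedd8Cre1-3 at 37.3 and 0.817 CPM, had log2 fold changes of 0.25 and 0.83 in the 19 libraries (adjusted p = 0.0404 and 0.0492, edgeR). With the trend with GC content removed, *Pcdh1*, *Cdh22* and *Cdh7* were also called in the 21 libraries (adjusted p = 0.00072, 0.0264 and 0.0334, edgeR). *Pcdh9* was not called there (adjusted p = 0.101, edgeR).

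The 4 members that were too scarce for the test were *Cdh5*, *Cdh15* (M-cadherin of muscle), *Cdh26* and *Pcdh12*. *Cdh26* had 0 counts in 6 of 10 RFP libraries and 1 to 37 counts in the 11 CRE libraries, 33 and 173 counts in sum. The others summed to 56 and 150 (*Cdh5*), 163 and 101 (*Cdh15*) and 28 and 56 counts (*Pcdh12*) in RFP and CRE libraries. In a fit without the filter on low counts, *Cdh26* had a log2 fold change of 2.22 (adjusted p = 0.0393, edgeR), and the other 3 had adjusted p of 0.344 to 0.505 from the same test. With counts summed per culture, *Cdh26* was at 2.155 and not called (adjusted p = 0.142, edgeR).

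Many of these genes lie in groups on a chromosome, and neighbours did not always move alike. On chromosome 15, *Cdh6*, *Cdh9*, *Cdh10*, *Cdh12* and *Cdh18* lie within 10.45 Mb, with *Cdh9* lower, *Cdh18* higher and the other 3 not called. *Pcdh17*, higher, and *Pcdh20*, lower, are 3.918 Mb apart on chromosome 14, whereas *Cdh8* and *Cdh11*, 3.214 Mb apart on chromosome 8, were both lower. *Cdh7* and *Cdh19* are 0.747 Mb apart on chromosome 1, with log2 fold changes of 0.81 and 2.65. *Pcdh10* and *Pcdh18* lie 4.308 Mb apart on chromosome 3, at 0.22 and 2.17. Over the 27 tested members, the log2 fold change had a Spearman correlation of -0.0482 with exon GC content, 0.0495 with the length of the gene and -0.0806 with the RFP level per kb. The absolute log2 fold change had a Spearman correlation of -0.357 with the RFP median CPM. Called members spanned 14.1 to 1041 kb when higher and 10.1 to 1550 kb when lower.

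The sequences before the start sites of 4 called members are shown because they pair the members with the largest rises, *Cdh19* and *Pcdh18*, and the neighbours on chromosome 14 that moved in opposite directions, *Pcdh17* and *Pcdh20*. Each is the 250 bases before the start of the canonical Ensembl transcript in GRCm39, from 5′ to 3′ on the strand of the gene, with CpG dinucleotides in capitals. The minus strand is shown for all but *Pcdh17*.
*Cdh19*, chr1:110905350-110905599: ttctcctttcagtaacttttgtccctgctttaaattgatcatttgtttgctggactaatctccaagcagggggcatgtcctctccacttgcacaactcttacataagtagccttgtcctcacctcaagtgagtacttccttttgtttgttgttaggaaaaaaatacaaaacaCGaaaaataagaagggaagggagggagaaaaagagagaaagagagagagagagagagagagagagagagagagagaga
*Pcdh18*, chr3:49711831-49712080: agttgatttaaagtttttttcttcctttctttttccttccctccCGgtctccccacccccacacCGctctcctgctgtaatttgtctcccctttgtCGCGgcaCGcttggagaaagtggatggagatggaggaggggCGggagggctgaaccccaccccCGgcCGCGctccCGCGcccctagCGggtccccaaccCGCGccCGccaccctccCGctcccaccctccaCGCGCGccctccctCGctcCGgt
*Pcdh17*, chr14:84680715-84680964: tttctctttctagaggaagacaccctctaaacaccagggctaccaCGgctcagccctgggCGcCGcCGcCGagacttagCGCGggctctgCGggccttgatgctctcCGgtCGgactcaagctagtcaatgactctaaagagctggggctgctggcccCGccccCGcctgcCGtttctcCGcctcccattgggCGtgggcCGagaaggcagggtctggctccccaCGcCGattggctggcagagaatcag
*Pcdh20*, chr14:88708822-88709071: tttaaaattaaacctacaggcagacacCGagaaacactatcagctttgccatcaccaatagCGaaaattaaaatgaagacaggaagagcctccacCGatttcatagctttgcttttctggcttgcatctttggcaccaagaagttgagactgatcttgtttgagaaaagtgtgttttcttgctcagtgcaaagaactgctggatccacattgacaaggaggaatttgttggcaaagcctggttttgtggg

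The windows of *Pcdh18* and *Pcdh17* hold 21 and 18 CpGs, and those of *Cdh19* and *Pcdh20* hold 1 and 3. Over the 21770 protein-coding genes the quartiles were 3, 8 and 16, and the median over the 31 members was 9. Both the higher and the lower members included windows rich and poor in CpG, with 1 to 21 (median 13) in the 6 higher and 3 to 22 (median 7) in the 6 lower members. The E-box CAGGTG, to which the repressors of *Cdh1* bind, was found on either strand in 17.7% of all windows and in those of 4 members, *Cdh2*, *Cdh5*, *Cdh24* and *Pcdh15*. The antioxidant response element TGACNNNGC was found on either strand in 9.69% of all windows and in those of *Cdh5* and *Pcdh19*. A match describes the letters only.

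The intracellular partners of the cadherins were compared as lists written with earlier results of these data known. Their counts, like those of the marker lists after them, stand beside 16.4% of all genes tested that were higher and 13.8% that were lower in CRE libraries, and nothing particular to a list is read from them. Of 13 catenins and junction adaptors tested, 5 were higher and 3 lower. Beta-catenin (*Ctnnb1*), which binds all classical cadherin tails, was at 556 to 681 CPM in RFP and 427 to 746 in CRE libraries (log2 fold change -0.04, adjusted p = 0.791, edgeR). The alpha-catenins went apart, with *Ctnna1* at a median of 41.3 CPM in RFP and 79.0 in CRE libraries (0.97, adjusted p = 1.03e-05) and the neural *Ctnna2* at 118 and 97.5 (-0.38, adjusted p = 0.0463, both from edgeR). Vinculin (*Vcl*), which alpha-catenin recruits under tension, had a log2 fold change of 1.20, plakoglobin (*Jup*) of 0.87, the p120-binding *Plekha7* of 0.95 and p120 itself (*Ctnnd1*) of 0.44. The p120 relatives *Pkp2* and *Pkp4* were lower, by -1.48 and -0.48. Its relatives *Ctnnd2* (-0.03, adjusted p = 0.842) and *Arvcf* (-0.37, adjusted p = 0.110, both from edgeR) were not called. In the 19 libraries *Arvcf* was at -0.54 (adjusted p = 0.0019, edgeR). For *Ctnnd1* and *Ctnna2* the adjusted p in all 23 libraries was 0.0978 and 0.0674 from edgeR.

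Among 10 intracellular partners of protocadherins, 6 were lower and 0 higher, beside 13.8% and 16.4% of all genes, with a median log2 fold change of -0.40 against 0.02 over all genes tested. They included *Wasf1*, the neuronal WAVE subunit (-1.71), its partners *Cyfip2* (-0.63), *Cyfip1* (-0.52), *Nckap1* (-0.45) and *Brk1* (-0.27), and the phosphatase inhibitor *Set* (-0.38). *Set* was not called in all 23 libraries (-0.23, adjusted p = 0.159, edgeR). The phosphatase *Ppp1ca*, which binds delta-1 tails, had -0.22 (adjusted p = 0.0788, edgeR). Among proteases that process cadherins, the sheddase *Adam10* and the convertase *Furin* were not called, with log2 fold changes of -0.09 and 0.35. Of 14 tested genes of the wider cadherin superfamily, 3 were higher and 4 lower. *Fat1* (0.95), its relative *Dchs1* (0.80) and *Celsr3* (0.49) were higher, and *Clstn2* (-0.88), *Celsr2* (-0.64), *Clstn1* (-0.44) and the desmosomal *Dsc3* (-3.71) were lower. *Clstn1* was not called in all 23 libraries (-0.29, adjusted p = 0.181, edgeR). The median of *Dsc3* was 4.42 CPM (0.206 to 38.9) in RFP and 0.598 (0 to 1.39) in CRE libraries, so that the groups overlapped. Of 5 tested repressors of *Cdh1*, *Zeb2* was lower (-0.72) and none higher, while *Cdh1* itself had 4 counts in all libraries together.

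Markers of other cell types moved between the groups too, again beside 16.4% of all genes higher and 13.8% lower. In all 23 libraries the markers *Olig2*, *Aldh1l1*, *Aldoc* and *Neurod2*, each lower in the 21, were not called (adjusted p = 0.124, 0.120, 0.0890 and 0.0532, edgeR). Of 9 tested markers of the oligodendrocyte lineage 6 were lower, among them *Pdgfra* (-2.60) and *Sox10* (-3.13), and their summed level was 678 to 1978 CPM (median 1579) in RFP and 447 to 1981 (median 832) in CRE libraries. The part of these cells in the level of *Pcdh15* was not tested. Of 7 mesenchymal and mural markers 2 were higher, *Rgs5* (2.52) and *Pdgfrb* (0.81). The others were not called, with -1.08 for *Dcn* and 0.44 to 1.47 for *Lum*, *Col1a2*, *Col1a1* and *Col3a1*. The list summed to 21.4 to 173 CPM (median 86.2) in RFP and 83.1 to 479 (median 280.0) in CRE libraries. *Rgs5* alone had medians of 21.5 and 147 CPM. The part of such cells in *Pcdh18*, *Cdh11* and *Cdh13* was not tested. The Schwann cell markers *Foxd3* and *Erbb3* had medians under 1 CPM in both groups, *Pmp2* had no count in any of the 21 libraries, and *Ngfr*, the marker of this lineage that could be tested, was not called (log2 fold change 0.37, adjusted p = 0.556, edgeR). Of 10 astrocyte markers 2 were higher and 4 lower (median of the sum 6241 and 4802 CPM), of 7 endothelial markers 1 was tested and lower (sums of 2.22 to 9.02 and 1.59 to 7.90 CPM), and of 2 tested microglial markers 1 was higher (sums of 1.09 to 6.56 and 0.256 to 7.70 CPM).

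Neuronal markers were present in every library, as the label of the cultures implies. Of 5 glutamatergic markers 4 were lower, with a median log2 fold change of -1.88 and a summed level of 1973 to 3921 CPM in RFP and 634 to 1411 in CRE libraries. Of 5 pan-neuronal markers 4 were lower, with a median of -0.73. Of 8 GABA neuron markers 2 were higher and 1 lower, with a median of 0.12. The part of these shifts in the lower type II cadherins and *Pcdh20* was not tested.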

How the data were processed

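The series holds 23 RNA-seq libraries of primary hippocampal neurons, of which 12 are CRE and 11 RFP. The authors made them with Illumina Stranded mRNA Prep, sequenced on a NovaSeq6000 with bcl2fastq 2.20.0.422, aligned to GRCm39 (Ensembl release 110) with STAR 2.7.8a and counted with featureCounts 1.5.0-p1, per the submitters' processing notes. The authors deposited raw counts per gene. Strand setting and treatment of multi-mapped reads are not given in the sources used here, so counts of overlapping genes are uncertain. Nedd8Cre3-3 and Nedd8RFP3-2 were left out as in the authors' count table, while their methods name Nedd8Cre1-3 and Nedd8Cre3-3. The number before the hyphen of a library name was read as its culture, which neither the labels nor the paper state. Symbols, positions and exon lengths came from the GENCODE annotation of GRCm39, which held 99.95% of counts. The classes were assigned from written gene lists, not from the annotation. R 4.3.3 with edgeR 4.0.16 (filterByExpr, TMM, robust glmQLFit, Benjamini-Hochberg) compared CRE with RFP, with DESeq2 1.42.0 among 15 alternatives. CPM used TMM factors over 14382 genes. The fit was tested on simulated data. Every member is named. The members and lists were chosen with earlier results of these data known. Of partner and marker genes, the rule takes up to 5 called per list, and any others were named after their values were seen. Some genes of the lists are not reported here.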

Additional observations from a re-analysis of the deposited data

Results flagged for a closer look

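*Cdh20*, a type II cadherin, had one RFP library far from the others. Nedd8RFP2-4 was at 63.68 CPM and the next highest of the 10 RFP libraries at 39.24 CPM, a gap of 0.486 of the whole range. For 10 libraries with normally distributed values, chance gives such a gap in about 1 of 20, and the RFP levels of 31 members were examined. In the 19 libraries without Nedd8RFP2-4 and Nedd8Cre1-3, *Cdh20* had a log2 fold change of 0.34 (adjusted p = 0.226, edgeR).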

How the results depend on the processing

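Across 15 alternatives, *Pcdh18*, *Cdh19*, *Cdh4*, *Pcdh17*, *Cdh18* and *Pcdh20* were called in all, *Cdh9*, *Cdh11* and *Cdh24* in 14, *Cdh8* and *Pcdh15* in 13 and *Cdh13* in 8. Of the members tested and not called in the 21 libraries, *Pcdh1* was called in 7 and *Cdh7* and *Cdh22* in 6. *Cdh2* and *Pcdh9* were called in 2, and *Cdh10*, *Pcdh10* and *Pcdh19* in 1. With cultures left out in turn, 5 to 6 members were higher and 2 to 7 lower, with 12 to 24 partner genes (23 in the 21 libraries) and 10 to 27 marker genes (27) called, the lowest values being those without culture 2. The log2 fold change of *Nedd8* lay between -2.60 and -2.29 there. Calls of members stayed within 1.5 times under every other alternative, from 5 to 9 higher and 6 to 8 lower. With the replicate block of culture, 6 were higher and 6 lower. With a block of culture and library number they were 5 and 6, and with the culture block and the GC trend removed 7 and 8. After removal of group means, CRE and RFP libraries of the same culture and library number correlated at -0.062 to 0.115. Medians over pairs within a culture were 0.027 to 0.036, against -0.0055 between cultures. Values this near 0 cannot decide whether libraries were paired. With counts summed per culture, 6 members were higher and 7 lower, without *Cdh13* and *Pcdh15*. Of all genes tested, 4370 of 14488 (30.2%) were called in the 21 libraries, 2114 of 14745 (14.3%) without culture 2 and 6920 of 32701 (21.2%) without the filter on low counts. Without that filter the median log2 fold change of all genes tested moved to 0.14.

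Signs turned only in members that were not called, and the cause was not tested. *Cdh6* was at -0.23 with the block of culture and library number, -0.0036 with that of culture and -0.17 to -0.16 with culture 2 or 3 left out. *Pcdh7* was at -0.0048 and *Pcdh9* at -0.0151 with the former block, and *Pcdh7* at -0.0604 without culture 3. *Cdh20* was at -0.0999 and *Cdh23* at -0.302 without culture 3, and *Cdh23* at -0.0425 in all 23 libraries and -0.1406 there with the GC trend removed, an alternative chosen after seeing the data. *Pcdh8* was at -0.0395 in the libraries left by the methods text. *Pcdh11x* was at 0.0655 with the GC trend removed, 0.0409 with that in all 23 libraries, 0.0399 with it and the culture block, and 0.1475 without culture 1. Of 405 values of members under alternatives, 349 kept sign and side of the threshold. Depth limits *Cdh5*, *Cdh15*, *Cdh26* and *Pcdh12*, which were too scarce for the test.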
